A study of Mus musculus with 6 samples.

Results

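The secretory pathway and vesicle traffic families described here are 42 genes, chosen by name from the 1375 genes of the deposited list of differential genes. The names begin with Sec, Ssr, Spcs, Srp, Tmed, Cop, Trappc, Arf, Arl, Rab, Vps, Snx or Atp6v, followed for most families by a number, and pseudogene names were left out. By role, 9 act at the translocon and on signal peptides, 1 is a further Sec gene, 3 belong to the COPI coat and the p24 receptors, 4 to TRAPP, 5 to Arf and Arl, 8 to Rab, 2 to Vps, 5 to Snx and 5 to the V-ATPase. RNA came from the prefrontal cortex of 6 C57bl/6j male mice, all siblings housed 3 per cage, and was sequenced as polyA RNA in 1 batch. Every mouse had received ketamine, an NMDA receptor antagonist, at 10 mg/kg by intraperitoneal injection 24 hours before. The mice had been sorted into 3 nonresponders and 3 responders by behaviour in a novelty suppressed feeding test and a forced swimming test. No untreated mice are among the samples, the sources used here name neither the cutoffs of the sorting nor the ages, and the RNA holds all cell types of the tissue. The values therefore compare ketamine-treated mice with each other, and in such bulk RNA fewer cells of a type and less RNA per cell cannot be told apart.

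Proteins bound for the cell surface, for secretion or for the endosomal system enter the endoplasmic reticulum (ER) through the Sec61 channel, guided by the signal recognition particle (SRP), and lose their signal peptide to signal peptidase. Coated vesicles then carry cargo between ER, Golgi and endosomes. Small GTPases of the Arf and Rab families mark the membranes, tethers such as TRAPP catch the vesicles, retromer and sorting nexins return receptors from endosomes, and the V-ATPase acidifies the compartments. In neurons the same machinery supplies receptors and dense core vesicles to distant processes and fills synaptic vesicles, whose transmitter uptake depends on the V-ATPase.

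All listed genes were higher in responders with an unadjusted p-value below 0.05 in the authors' deposited table, so the direction of each member and part of its size were fixed by that choice. The values below describe the members and do not test them against chance. GENCODE release M21 holds 268 protein coding genes with names of these families, and 42 of them, 15.7%, are in the list. Of all 21924 protein coding genes of that annotation, 1248, or 5.69%, are in the list. Both bases count genes whether or not they are expressed in this tissue, so these 2 shares do not measure enrichment. The 1375 listed genes are 9.71% of the 14156 genes over which the authors' adjusted p-values appear to have been computed. That share has a different base and takes in genes that are not protein coding. The other family genes have no value here. Coverage by the list was uneven between families. It was 4 of 8 for the genes named Srp, 2 of 3 for Spcs and 4 of 15 for TRAPP. For genes named Atp6v1, most of which encode the soluble V1 part of the V-ATPase, it was 5 of 14. It was 0 of 9 for the genes of the membrane part (Atp6v0). Of genes with names that begin with Sec13, Sec16, Sec23, Sec24 or Sec31, most of them COPII coat genes, it was 0 of 12.

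By the authors' deposited table, 0 of the 42 members had an adjusted p-value below 0.05, while 1.38% of all listed genes did. By the authors' deposited table, members' adjusted p-values ran from 0.127, for Spcs2, to 0.320. The counts of all listed genes were refitted with edgeR's quasi-likelihood test. It gave an unadjusted p below 0.05 for 5 members, Spcs2, Spcs3, Snx6, Snx16 and Arf4, or 11.9% of the 42, against 26.5% of all listed genes. The same test gave 0 members and 0 of all listed genes an adjusted p below 0.05. DESeq2 gave 16 members an unadjusted p below 0.05, against 42.5% of all listed genes. It gave 0 members an adjusted p below 0.05, and how many of all listed genes had one by DESeq2 was not counted. The edgeR count of 5 was 0 without any 1 of the nonresponders, against 7.35%, 6.33% and 8.51% of all listed genes without replicates 1, 2 and 3. It was 29, 13 and 28 without responder replicates 1, 2 and 3, against 57.2%, 40.7% and 60.2% of all listed genes. With the replicate number as a block it was 0, against 16.1% of all listed genes, and among genes with a mean count of at least 10 it was 6, against 23.9%. With TMM or median-of-ratios factors of the listed genes it was 0, against 5.09% of all listed genes under each.

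The library of responder replicate 3 differed most from the rest, and results are given with and without it. Its log2(FPKM + 1) values over the listed genes had correlations of 0.967 to 0.972 with the other libraries, against 0.993 to 0.996 between those. FPKM is the number of fragments per kilobase of gene, scaled to each library. The median FPKM of the members was 15.9, 15.7 and 15.3 in the nonresponders and 17.3, 19.2 and 30.0 in the responders. That library was the highest of the 6 in 41 of 42 members, against 87.6% of all listed genes, the exception being Rab9b. The groups did not overlap in 28 of 42 members, against 73.5% of all listed genes. Responder replicates 1 and 2 both exceeded every nonresponder in 28 of 42 members, against 74.1% of all listed genes, and replicate 2 exceeded replicate 1 in 33, against 66.5%. The median log2 difference between group mean FPKM values was 0.50 for the members and 0.57 for all listed genes. Without responder replicate 3 these medians were 0.21 and 0.26. No member reached a 2-fold ratio, against 13.1% of all listed genes. When each library was scaled to the middle of the listed genes, the median of all listed genes was 0.01 and that of the members -0.07, with 27 of 42 members and 644 of 1358 listed genes below 0. On that scale the groups were apart in 0 members, against 7.05% of all listed genes, and responder replicate 3 was the highest library in 15, against 37.7%.

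**Figure D1:**
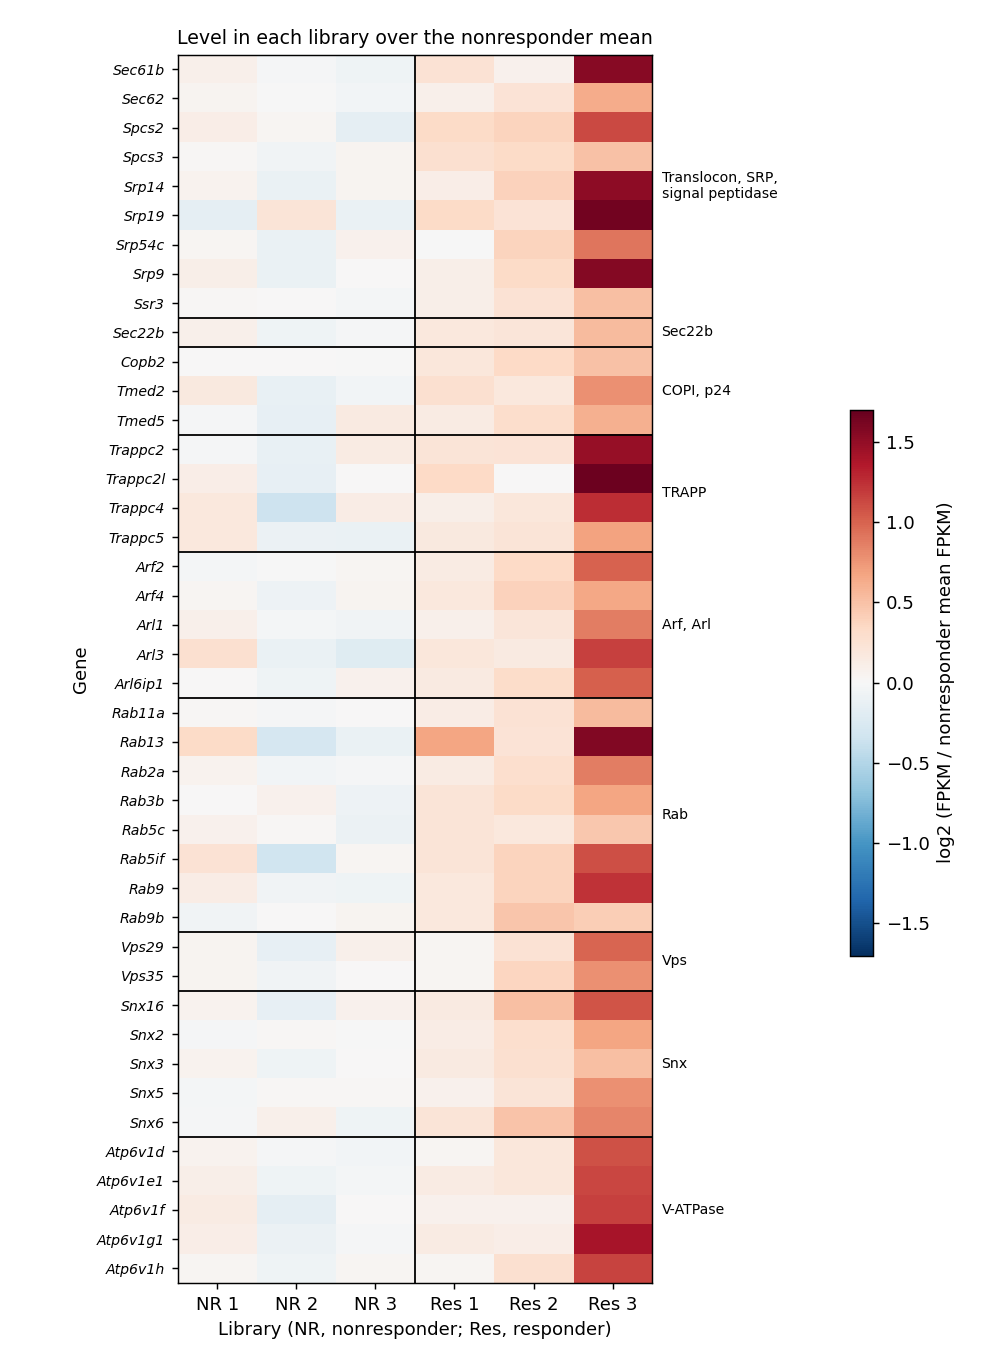
Log2 ratio of each gene's FPKM in each of the 6 libraries (columns) to its mean over the 3 nonresponders, for the 42 genes (rows) in their families. The column of responder replicate 3 is the darkest in all genes but Rab9b, and the columns of responder replicates 1 and 2 are mostly pale red.

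Spcs2 had the smallest p-value of the members in both the authors' deposited table and the edgeR fit. Spcs2 and Spcs3 encode accessory subunits of the signal peptidase complex, which cuts signal peptides in the ER membrane. Spcs2 stood at 14.8, 13.9 and 12.2 FPKM in the nonresponders and 17.0, 17.8 and 29.7 FPKM in the responders. All responders lay above all nonresponders, and responder replicate 3 stood well above the other responders. The means were 13.6 ± 1.31 and 21.5 ± 7.13 FPKM (SD, n = 3 per group), a ratio of 1.58 that was 1.28 without responder replicate 3. The unadjusted p by edgeR was 0.0327 with all libraries and 0.000432 without that library, where the adjusted p by edgeR was 0.0690. By the authors' table, the gene (ENSMUSG00000035227) occupies bases 99837569 to 99863462 of chromosome 7, minus strand, in mm10. Its RefSeq promoter window in build GRCm38.p6 is at chr7:99858834-99859133 on the minus strand. That window lies inside the span above, as the RefSeq start differs from the outer end of the span. It is shown because Spcs2 had the smallest p-value. Capitals mark CCACG, the end of the ER stress response element, at -246 relative to the RefSeq start.
Spcs2: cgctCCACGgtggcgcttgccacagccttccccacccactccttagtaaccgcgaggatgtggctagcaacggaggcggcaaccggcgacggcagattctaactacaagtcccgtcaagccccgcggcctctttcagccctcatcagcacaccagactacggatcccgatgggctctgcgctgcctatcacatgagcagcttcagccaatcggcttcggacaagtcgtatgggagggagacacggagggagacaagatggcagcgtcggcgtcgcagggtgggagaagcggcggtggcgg

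Spcs3 stood at 26.7, 25.2 and 27.1 FPKM in the nonresponders and 31.9, 33.0 and 37.2 FPKM in the responders. The responders lay close together and apart from the nonresponders. Its means were 26.3 ± 1.00 and 34.1 ± 2.79 FPKM (SD, n = 3 per group), a ratio of 1.29 that was 1.23 without responder replicate 3. Spcs3 thus depended less on that library than Spcs2 did. The unadjusted p by edgeR was 0.0383, and 0.000798 without that library, where the adjusted p by edgeR was 0.0925.

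The SRP genes Srp9, Srp14 and Srp19 depended more on responder replicate 3 than most members did. Srp9 and Srp14 encode the proteins that bind the Alu end of the SRP RNA as a pair, and Srp19 encodes a protein that joins its other end during assembly. Srp14 stood at 43.3, 38.5 and 42.9 FPKM in the nonresponders and 45.1, 54.7 and 120 FPKM in the responders, a ratio of 1.76 between the means. Srp9 stood at 11.0, 9.48 and 10.3 FPKM and at 10.9, 12.8 and 30.3 FPKM, also a ratio of 1.76. Srp19 stood at 5.94, 7.68 and 6.11 FPKM and at 8.27, 7.74 and 20.5 FPKM, a ratio of 1.85. In each of these, replicate 3 of the responders lay far above the other responders and the nonresponders. Replicates 1 and 2 lay nearer to the nonresponders. In Srp14 and Srp19 both still exceeded every nonresponder, most clearly replicate 2 in Srp14, at 54.7 against at most 43.3 FPKM. In Srp9 replicate 2 exceeded every nonresponder and replicate 1 lay within them. The groups overlapped in Srp9. In responder replicate 3 the level over the mean of the other responders was 1.26, 1.35 and 1.36 on the log2 scale for Srp14, Srp9 and Srp19, compared with a median of 0.70 for all listed genes. Without that library their ratios were 1.20, 1.16 and 1.22. Srp54c, a mouse gene for the SRP subunit that binds signal sequences, ranged from 5.10 to 5.78 FPKM in nonresponders and from 5.48 to 10.4 FPKM in responders, a ratio of 1.39 that was 1.15 without responder replicate 3, whose difference from the other responders was 0.71 on the log2 scale. Its reads may be shared with near-identical Srp54 copies, so its values are uncertain.

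At the channel itself, Sec61b, a small subunit of Sec61, stood at 7.75, 7.24 and 6.93 FPKM in the nonresponders and 8.66, 7.70 and 21.3 FPKM in the responders. Responder replicate 2 lay within the nonresponders, and the ratio was 1.72, or 1.12 without responder replicate 3. Sec62, which assists the entry of small secretory proteins, stood at 41.9 to 44.9 FPKM in nonresponders and at 46.1, 51.1 and 67.5 FPKM in responders, a ratio of 1.26. Ssr3, a subunit of the translocon-associated protein complex, stood at 27.3 to 28.4 FPKM and at 29.8, 33.1 and 39.7 FPKM, a ratio of 1.22. In Sec62 and Ssr3 the groups did not overlap, and the nonresponders differed little among themselves. Over these 9 genes, the median log2 difference was 0.66, or 0.21 without responder replicate 3.

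**Figure D2:**
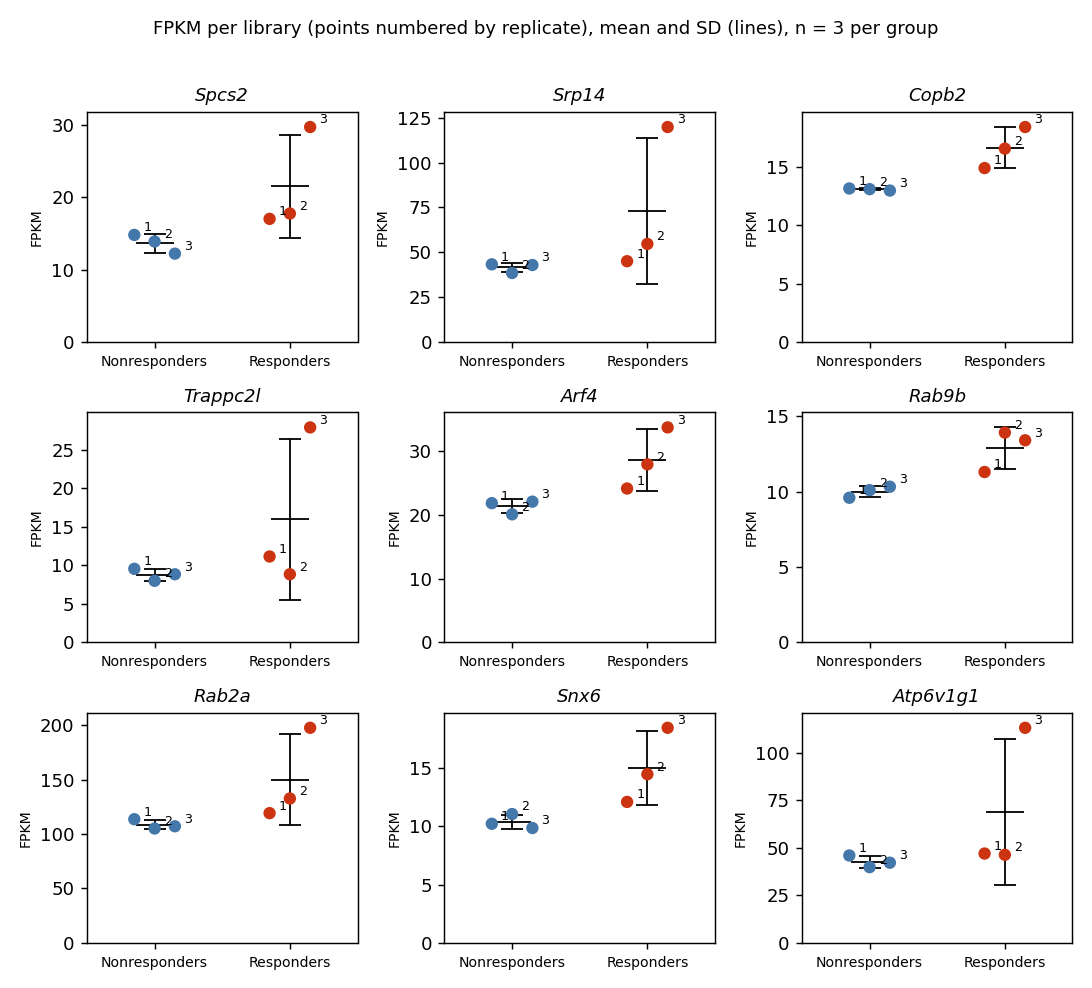
FPKM (vertical axes, from 0) of 9 genes in the 3 nonresponders (blue) and the 3 responders (red), numbered by replicate, with the mean and SD of each group as black lines. In Srp14, Trappc2l and Atp6v1g1 responder replicate 3 stands alone, while in Copb2, Rab9b and Snx6 all responders lie above the nonresponders and replicate 3 stands less far from the other responders.

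Between ER and Golgi, the COPI coat gene Copb2 had the smallest spread among nonresponders, relative to the mean, of the 42 members. Copb2, which encodes the beta-prime subunit of the COPI coat, stood at 13.2, 13.1 and 13.0 FPKM in the nonresponders and 14.9, 16.6 and 18.4 FPKM in the responders. The step between the groups was about as large as the steps among the responders. The means were 13.1 ± 0.0913 and 16.6 ± 1.76 FPKM (SD, n = 3 per group), a ratio of 1.27 that was 1.20 without responder replicate 3. Its unadjusted p by edgeR was 0.0564 with all libraries and 0.00329 without that library. By the authors' table, the gene (ENSMUSG00000032458) occupies bases 98563721 to 98588382 of chromosome 9, plus strand, in mm10. Its RefSeq promoter window in build GRCm38.p6, at chr9:98563481-98563780 on the plus strand, is shown because it was the member window with TGACGTGG, an element bound by ER stress factors. Capitals mark this element, which is present as its reverse complement and ends at the start base.
Copb2: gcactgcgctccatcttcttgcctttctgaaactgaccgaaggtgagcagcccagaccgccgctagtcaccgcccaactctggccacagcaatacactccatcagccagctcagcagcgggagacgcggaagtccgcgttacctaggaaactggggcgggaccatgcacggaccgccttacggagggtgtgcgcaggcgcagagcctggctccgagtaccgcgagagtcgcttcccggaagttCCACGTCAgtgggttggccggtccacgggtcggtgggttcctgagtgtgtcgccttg

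Tmed2 and Tmed5, cargo receptors of the p24 family, had ratios of 1.35 and 1.29. Tmed2 stood at 16.7 to 20.4 FPKM in nonresponders and 22.0, 20.8 and 31.2 FPKM in responders, while in Tmed5 the groups overlapped. Sec22b, a SNARE of vesicles between ER and Golgi, stood at 14.6, 13.0 and 13.5 FPKM and at 15.6, 15.8 and 19.9 FPKM, a ratio of 1.25 with groups apart. None of these 4 genes had an unadjusted p below 0.05 by edgeR with all libraries, and all 4 did without responder replicate 3, against 60.2% of all listed genes.

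The genes of TRAPP, the tethering complex that also activates Rab GTPases at the Golgi, depended more on responder replicate 3, apart from Trappc5. Trappc2l stood at 9.55, 8.00 and 8.85 FPKM in the nonresponders and 11.2, 8.85 and 27.9 FPKM in the responders. Responder replicate 2 thus lay within the nonresponders, and the ratio of 1.81 was 1.14 without responder replicate 3. Trappc2, the gene of the subunit sedlin, stood at 8.68 to 10.4 FPKM in nonresponders and at 11.0, 11.1 and 26.4 FPKM in responders, a ratio of 1.71 that was 1.17 without that library. Trappc4 stood at 10.3, 7.10 and 9.90 FPKM and at 9.79, 10.4 and 21.8 FPKM, a ratio of 1.54 with overlapping groups. Of its exon bases 18.9% are shared with Rps25, a ribosomal protein gene on the opposite strand, and as no source used here gives the strand setting of the counting, reads of the pair cannot be told apart. Trappc5 stood at 6.00 to 7.34 FPKM and 7.27 to 10.4 FPKM, a ratio of 1.30, or 1.14 without responder replicate 3, again with overlap. Its difference of that library from the other responders was 0.49 on the log2 scale, under the median of 0.70 for all listed genes. The TRAPP median of the log2 difference was 0.70, the highest of the families, and 0.19 without responder replicate 3.

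**Figure D3:**
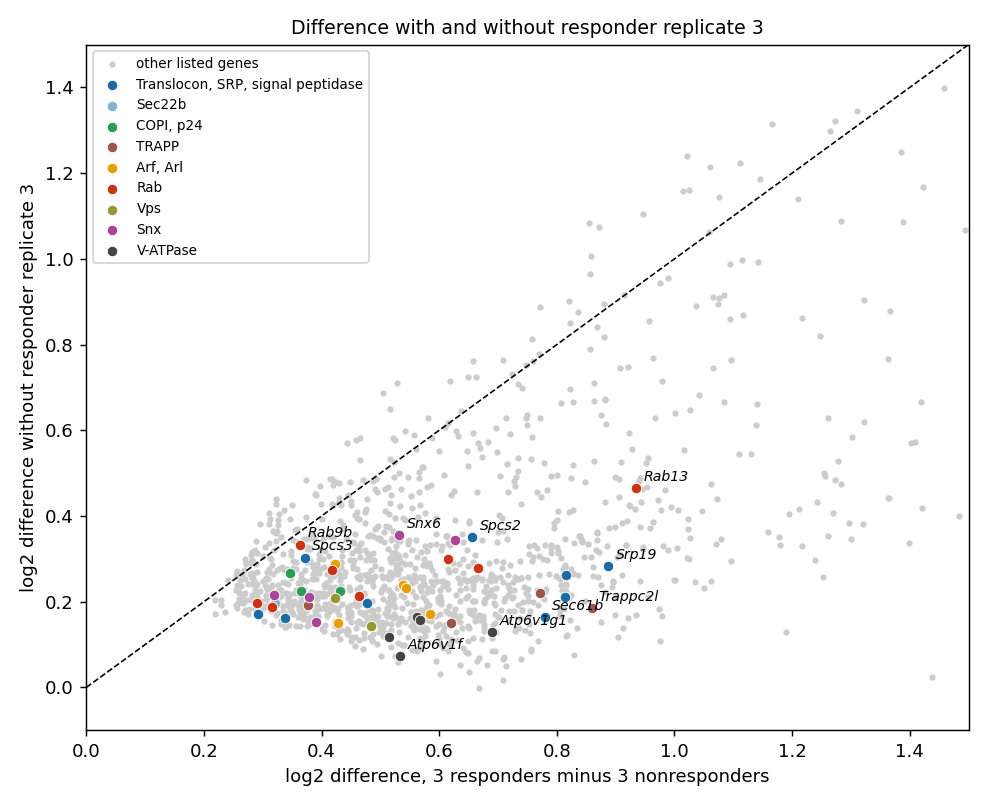
Log2 difference of mean FPKM between responders and nonresponders with all 6 libraries (horizontal axis) and without responder replicate 3 (vertical axis), each coloured point 1 of the 42 genes and each grey point 1 of 1230 other listed genes; 103 more lie outside the axes or have no ratio. The dashed line marks equal values. Rab9b and Spcs3 lie near it, whereas Atp6v1f, Sec61b and Trappc2l lie far under it.

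Among the Arf and Arl genes, Arf4 depended least on responder replicate 3. Arf4, a Golgi GTPase that recruits coat proteins, stood at 21.8, 20.0 and 22.0 FPKM in the nonresponders and 24.1, 27.9 and 33.6 FPKM in the responders. Responders and nonresponders were apart, with means of 21.3 ± 1.08 and 28.5 ± 4.81 FPKM (SD, n = 3 per group). Its ratio of 1.34 was 1.22 without responder replicate 3, with an unadjusted p by edgeR of 0.0458 and 0.00230 in these settings. The gene shares 14.6% of its exon bases with Pde12 on the opposite strand. Arf2, a related GTPase that mice have and humans lack, stood at 13.6 to 14.3 FPKM in nonresponders and at 15.3, 17.6 and 27.8 FPKM in responders, a ratio of 1.45. Arl1, which draws golgin tethers to the trans-Golgi, had a ratio of 1.35, and responder replicate 1, at 54.3 FPKM, lay just above the highest nonresponder, at 54.2 FPKM. Arl3, which releases lipid-modified proteins into cilia, overlapped between groups, with 77.2 FPKM in nonresponder replicate 1 and 72.9, 71.4 and 144 FPKM in the responders. Arl6ip1 was the most abundant member, at 113, 106 and 118 FPKM in the nonresponders and 124, 139 and 227 FPKM in the responders. It encodes an ER-shaping membrane protein named for its binding to Arl6 and is itself no Arf or Arl GTPase. Again the groups were apart, and its ratio of 1.46 was 1.17 without responder replicate 3.

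The 8 genes named Rab covered several compartments and spread widely in how far they followed responder replicate 3. Rab9b, a GTPase of the route from late endosomes to the trans-Golgi, stood at 9.60, 10.1 and 10.3 FPKM in the nonresponders and 11.3, 13.9 and 13.4 FPKM in the responders. It was the member whose highest library was responder replicate 2, and its ratio was 1.29 with all libraries and 1.26 without replicate 3. Its unadjusted p by edgeR was 0.0660, or 0.00191 without that library. It lies outside the naming rule and was singled out after its values were seen. Its paralog Rab9 stood at 13.5, 11.8 and 11.7 FPKM and at 14.0, 16.0 and 28.8 FPKM, a ratio of 1.59 that was 1.21 without replicate 3. The difference of responder replicate 3 from the other responders was 0.09 for Rab9b and 0.94 for Rab9 on the log2 scale.

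Rab2a, which acts between ER and Golgi, was the most abundant Rab gene of the list. Its values were 114, 105 and 107 FPKM in the nonresponders and 119, 133 and 198 FPKM in the responders. Its groups were apart, and the ratio of 1.38 was 1.16 without responder replicate 3. Rab3b, of the family that governs regulated exocytosis, stood at 15.6, 16.4 and 14.7 FPKM and at 18.1, 19.6 and 24.8 FPKM. Here too the groups were apart, and the ratio was 1.34, or 1.21 without that library, with an unadjusted p by edgeR of 0.05003 before and 0.00505 after leaving it out. Rab5c of early endosomes stood between 44.7 and 50.05 FPKM in nonresponders and between 53.8 and 65.8 FPKM in responders, a ratio of 1.22. Rab11a of recycling endosomes stood between 35.6 and 36.5 FPKM and between 39.4 and 52.6 FPKM, a ratio of 1.24. Both were apart between the groups. Rab13, a GTPase of traffic to cell junctions, was the least abundant member, at 0.861 to 1.30 FPKM in nonresponders and 1.66, 1.22 and 3.11 FPKM in responders. It had the largest ratio of all members, 1.91, on 34 to 107 reads per library, and the groups overlapped. Rab5if, an ER membrane protein named after Rab5 that is no GTPase, also overlapped, at a ratio of 1.53, and shares 25.5% of its exon bases with Sla2 on the opposite strand.

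On the route out of endosomes, the list held 2 core subunits of retromer, Vps35 and Vps29, and several sorting nexins that work with it. Snx6 stood at 10.2, 11.1 and 9.87 FPKM in the nonresponders and 12.1, 14.5 and 18.5 FPKM in the responders. The groups did not overlap, and the means were 10.4 ± 0.616 and 15.0 ± 3.22 FPKM (SD, n = 3 per group). The ratio was 1.45, or 1.28 without responder replicate 3, and the unadjusted p by edgeR 0.0366, or 0.00152 without that library, where the adjusted p by edgeR was 0.126. Snx2 and Snx5, which like Snx6 bend membranes into tubules through a BAR domain, had ratios of 1.30 and 1.31. Snx2 stood at 26.3, 26.8 and 26.5 FPKM in the nonresponders and 29.0, 32.4 and 42.1 FPKM in the responders. Snx3, which recruits retromer by another route, was the most abundant of them, at 62.1, 56.5 and 60.0 FPKM and at 66.4, 71.8 and 84.7 FPKM, a ratio of 1.25. Snx16, an endosomal nexin, stood at 9.26, 8.12 and 9.35 FPKM and at 9.92, 12.7 and 18.6 FPKM, a ratio of 1.54 with an unadjusted p by edgeR of 0.0489. In all 5 Snx genes every responder lay above every nonresponder, against 73.5% of all listed genes. Responder replicate 2 stood above replicate 1 in each, against 66.5%, and responder replicate 3 was the highest in each, against 87.6%.

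Both Vps genes overlapped between the groups. Vps35, the scaffold of retromer, stood at 20.6, 19.1 and 20.1 FPKM in the nonresponders and 20.3, 25.7 and 34.1 FPKM in the responders, and Vps29 at 13.8, 12.1 and 14.2 FPKM and at 13.7, 15.8 and 26.6 FPKM. In each, responder replicate 1 lay within the nonresponders. Their ratios were 1.34 and 1.40, or 1.16 and 1.10 without responder replicate 3. The median log2 difference of the Snx genes was 0.39 and without that library 0.21, while that of the Vps genes was 0.45 and 0.18.

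The 5 V-ATPase genes all encode subunits of its soluble V1 part, which hydrolyses ATP. Atp6v1d and Atp6v1f belong to the central stalk, Atp6v1e1 and Atp6v1g1 to the outer stalks, and Atp6v1h is a regulatory subunit. Atp6v1e1 was the most abundant, at 70.3, 62.8 and 64.1 FPKM in the nonresponders and 72.4, 74.9 and 144 FPKM in the responders. Atp6v1g1 stood at 45.9, 39.8 and 42.1 FPKM and at 47.0, 46.3 and 113 FPKM. In these genes responder replicates 1 and 2 lay just above the nonresponders and replicate 3 far above them.

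Atp6v1d stood at 44.1, 41.8 and 41.0 FPKM in nonresponders and at 43.3, 48.5 and 89.5 FPKM in responders. Atp6v1f stood at 50.2, 40.9 and 45.8 FPKM and at 48.2, 47.8 and 102 FPKM, with the responder replicates 1 and 2 within the range of the nonresponders. Atp6v1h stood at 16.1, 14.9 and 15.9 FPKM and at 16.1, 18.8 and 34.6 FPKM, with the lowest responder just above the highest nonresponder. The 5 ratios lay between 1.43 and 1.61 and without responder replicate 3 between 1.05 and 1.12. The difference of that library from the other responders was 0.96 to 1.28 on the log2 scale in all 5, and 0.29 to 0.72 in the 5 Snx genes. The V-ATPase median of the log2 difference was 0.56 with all libraries and 0.13 without responder replicate 3, the lowest of the families in that setting. With that library left out, 1 of the 5, Atp6v1e1, had an unadjusted p below 0.05 by edgeR, against 60.2% of all listed genes.

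**Figure D4:**
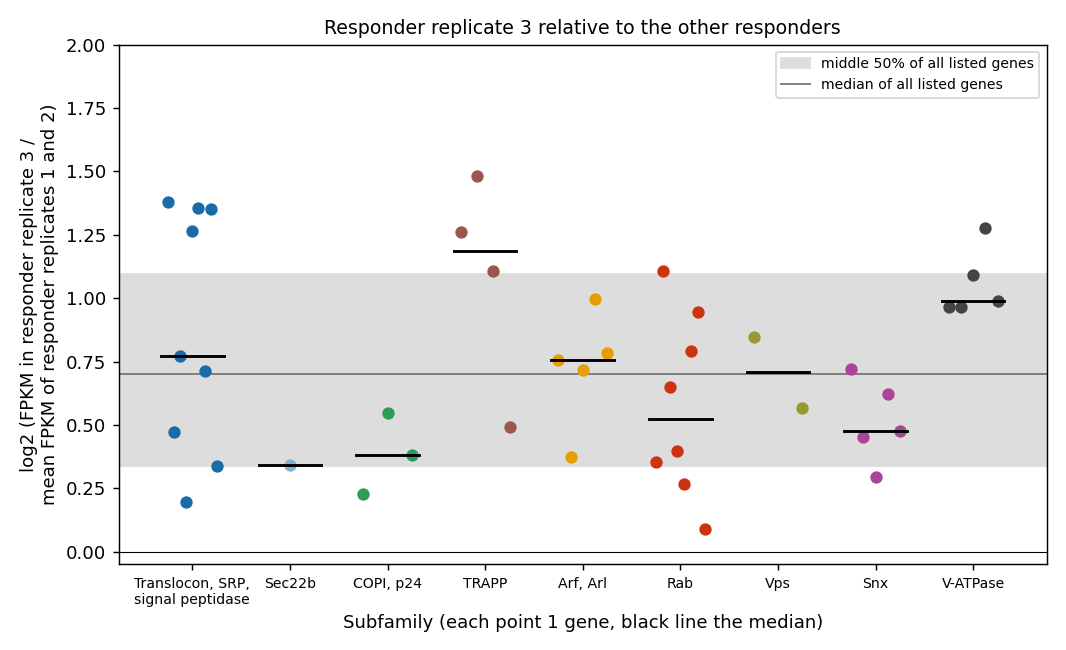
Log2 ratio of FPKM in responder replicate 3 to the mean FPKM of responder replicates 1 and 2 (vertical axis) for each gene (points) by family (horizontal axis), with family medians as black lines. The grey line and band are the median, 0.70, and the middle 50%, 0.34 to 1.09, of all listed genes. TRAPP and the V-ATPase have medians of 1.18 and 0.99, and COPI with p24 and Snx have 0.38 and 0.47.

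The families differed in how responders 1 and 2 stood, which the plot with and without responder replicate 3 shows. Without that library the family medians of the log2 difference ran from 0.13 in the V-ATPase to 0.28 in the Rab genes, against 0.26 in all listed genes. With it, they ran from 0.32 for Sec22b and 0.36 for COPI and p24 to 0.70 for TRAPP. Of the 42 members, 28 had an unadjusted p below 0.05 by edgeR without that library, or 66.7%, against 60.2% of all listed genes. None had an adjusted p below 0.05 by that test, against 5.45% of all listed genes. The differences between families were not tested.

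Other genes of the pathway were drawn from 8 lists with 121 names, of which 24 were in the table. By the authors' deposited table, 0 of these 24 had an adjusted p-value below 0.05, against 1.38% of all listed genes. The median of their log2 differences was 0.54, or 0.17 without responder replicate 3, and the groups did not overlap in 13 of 24, against 73.5% of all listed genes. Oligosaccharyltransferase, which adds sugar chains to proteins as they enter the ER, had 5 of 12 names in the table, and the groups did not overlap in these 5, under the same background. Ostc, a subunit of it, stood at 9.05, 8.80 and 9.62 FPKM in the nonresponders and 12.6, 12.6 and 29.1 FPKM in the responders. Rpn1, another subunit, stood at 27.2, 26.7 and 24.8 FPKM and at 30.6, 33.9 and 39.1 FPKM. Their ratios were 1.98 and 1.32, and Ostc, Rpn1 and Ost4 had an unadjusted p below 0.05 by edgeR, the 3 genes of the 24 that did, against 26.5% of all listed genes. Of 16 cargo receptors and COPII partners, 4 were in the table. The COPII GTPases Sar1a and Sar1b were among them, with ratios of 1.28 and 1.57, and without responder replicate 3 their log2 differences were 0.24 and 0.04. Of 32 SNAREs and tethers, 6 were in the table. Of adaptors and clathrin there were 2 of 17, of ESCRT-III 2 of 10, of ER insertion factors 1 of 15 and of lysosomal proteins 3 of 16. Of V-ATPase accessory genes there was 1 of 3, Atp6ap2, at 101, 93.3 and 95.0 FPKM and at 97.5, 113 and 191 FPKM.

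Markers of some cell types were in the table beside these genes, and were higher in responders by the selection of the list. Markers outside the table have no value here, so the sums below cannot show whether a cell type as a whole differed. Of 7 astrocyte markers 4 were in the table, with a summed level between 192 and 217 FPKM in nonresponders and between 245 and 333 FPKM in responders. Of 8 microglia markers 5 were, with 72.1 to 84.6 FPKM and 95.0 to 192 FPKM. Of 8 leptomeningeal markers 5 were, with 7.21 to 8.25 FPKM and 11.7 to 17.7 FPKM, and of 4 choroid plexus markers Kl was, at 0.256 to 0.474 FPKM and 0.525 to 0.538 FPKM. No marker in the table was at 0 reads in any library. In responder replicate 3 the summed levels of the first 3 of these lists were the highest. Most of the astrocyte sum was Aldoc, at 153 to 167 FPKM in nonresponders. Most of the leptomeningeal sum was Igfbp2, at 6.28 to 6.41 FPKM in nonresponders. The groups overlapped in the microglia marker Tyrobp and the leptomeningeal marker Ogn. The listed markers of neurons, oligodendrocytes and their precursors, vessels and blood were outside the table, so that the tissue label could not be checked against them. The part of cell composition in the members' values was not tested.

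For 32 of the 42 members, RefSeq promoter windows of build GRCm38.p6, from 250 bases before to 50 after the start, were searched on both strands. The motifs were the long ER stress response element and TGACGTGG, through which the ER stress factors ATF6 and XBP1 act, and the CLEAR element of lysosomal genes with its core CACGTG. The long ER stress response element was in 0 of 32 member windows and in 0.137% of all 27025 genes with a window and 0.794% of the 1007 listed ones. The whole CLEAR element was in 0 of 32, in 0.370% of all genes and in 0.695% of listed genes. TGACGTGG was in 1, Copb2, in 0.714% of all genes and in 0.596% of listed genes. The core CACGTG was in 4, Arl3, Sec62, Snx5 and Trappc5, or 12.5%, in 8.09% of all genes and in 11.1% of listed genes. CCACG, which ends the long element and overlaps TGACGTGG on the other strand, was in 17 of 32, or 53.1%, in 35.5% of all genes and in 50.2% of listed genes. A match describes letters only.

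By the mm10 positions of the authors' table, Trappc2 (ENSMUSG00000079317) and Rab9 (ENSMUSG00000079316) are neighbours on chromosome X. Trappc2 occupies 166440574 to 166453140 on its plus strand and Rab9 166457253 to 166479867 on its minus strand, with 4112 bases between them. All members are protein coding genes. Of the 42, 18 share exon bases with another gene of the annotation, 17 of them with a gene on the opposite strand, over 0.779% to 25.5% of their exon length.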

How the data were processed

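The deposited table gives whole read counts per gene and library, per the file headers, for listed genes only, which summed to between 1989534 and 3486903 reads per library; the members had at least 34 reads in every library. The authors' FPKM values equal count over the deposited gene length and 1 scale per library (14981505 to 19298950 reads), so total depth is otherwise unknown. The authors' log2 fold changes (nonresponders over responders) and p-values are copied from the deposited table. The build is mm10, per the submitters' processing notes; no source used here names the aligner, the counter, its strand setting or the test. A further 6 columns of sample values matched no label and were not used.

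Group means and SDs are of FPKM, without pseudocount, and ratios are responders over nonresponders. Counts of all 1375 listed genes were fitted with edgeR 4.0.16 (quasi-likelihood, robust, two-sided) and DESeq2 1.42.0, with the FPKM scale as library size. The Benjamini-Hochberg adjustment counted 14156 genes, a number inferred from the authors' adjusted p-values, with genes outside the table as not passing. The edgeR step was tested on simulated counts with the same spread for all genes and no library set apart. That test does not show how the step performs on these data. The libraries came from separate mice per the labels' protocols, with 3 replicates per group.

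Members and lists were chosen with earlier results of these data known. The naming rule took all genes of families of up to 4, and otherwise the 2 most abundant, the 2 with the smallest p-value in the authors' deposited table and the 2 with the largest ratio at a mean count of at least 50; this gave 31 genes, and the remaining 11 members are named because every member is described. Same-numbered libraries of the groups had deviations correlated at -0.02, -0.11 and 0.04, so no sign of pairing by number was seen. With few libraries per group and genes listed for a group difference, these correlations cannot exclude that the numbers pair mice. Tried as alternatives were DESeq2, 2 scalings to the listed genes, a mean count minimum of 10, pseudocounts of 0.1 and 1, group medians, a replicate block and leaving out each library.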

Additional observations from a re-analysis of the deposited data

How the results depend on the processing

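Counts of members depended on the test and on single libraries. The count with an unadjusted p below 0.05, 5 by edgeR, was 16 by DESeq2, 0 when TMM or median-of-ratios factors of the listed genes set the scale, 0 with the replicate number as a block, and 0 to 29 when 1 library was left out. No basis for the block was seen in the data, since same-numbered libraries did not deviate together and not every library correlated best with its own number. The count by adjusted p was 0 in every setting run. By edgeR, 0 of all listed genes passed with all libraries and 5.45% without responder replicate 3. That share was not counted in the other settings. With the median-of-ratios scale of the listed genes, 0 members in place of 28 had groups apart, against 7.05% of all listed genes, and 15 in place of 41 were highest in responder replicate 3, against 37.7%. That scale sets the middle of the listed genes near 0 by construction, and the median log2 difference was then -0.073 for all members, 0.098 for the translocon group, -0.19 for Sec22b, -0.15 for COPI and p24, 0.090 for TRAPP, -0.020 for Arf and Arl, -0.090 for Rab, -0.098 for Vps, -0.14 for Snx and -0.019 for the V-ATPase. Leaving out 1 library at a time gave median log2 differences of 0.21 to 0.67 for all members, 0.21 to 0.80 for the translocon group, 0.19 to 0.90 for TRAPP and 0.13 to 0.74 for the V-ATPase, the lowest in each without responder replicate 3. Among the 31 genes of the naming rule, 19 had a log2 difference below 0 on the median-of-ratios scale, against 644 of 1358 listed genes. In the other settings 0 of the 31 did. Group medians in place of means gave 0.31 for all members, 0.31 for the translocon group, 0.28 for TRAPP, 0.30 for Arf and Arl, 0.28 for Vps and 0.21 for the V-ATPase, down from 0.50, 0.66, 0.70, 0.54, 0.45 and 0.56, within 1 SD of the wide spread between replicates. The pseudocounts and the count minimum left each family median within that spread. The 3 mice per group and a table selected by p-value limit what these values can show.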

Other observations

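Across the listed genes, a higher level in responder replicate 3 went with a shorter gene. The log2 ratio of that library to the mean of the other responders had a Pearson correlation of -0.46 and a Spearman correlation of -0.46 with log2 gene length over the 1357 listed genes with a ratio, and -0.32 and -0.28 over the 42 members. The values share their libraries and genes are not independent replicates, so no p is given. With mean level the correlation was 0.07 over the listed genes and -0.10 over the members. The part of transcript length in the members' values was not tested.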
